A study of Drosophila ananassae with 22 samples.

Results

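Evenly expressed transcription start site clusters (TSCs) mark *Drosophila ananassae* promoters whose expression varied little through embryogenesis, and this report describes 942 of them. A TSC is a stretch of the genome over which the start sites of transcripts cluster, and its expression is given in RPM, its reads scaled to a common total of reads in TSCs at each time point. The members were selected on their RPM values by the thresholds that the study used for housekeeping promoters: a highest value of at least 10 RPM over 21 time points, and a highest value under 5 times the lowest. Of 27105 TSCs in all, 11300 reached 10 RPM. Of these, 942 met both thresholds, 6164 were developmentally regulated (at least 60% of their expression within an 8 hr window), and 4194 fell in neither class. Some intervals are listed under more than 1 gene: the 942 members are 927 distinct intervals, 15 of them listed under 2 genes with identical values, and the 11300 are 11187 intervals. Counting each interval once left 57.2% of members with an opposite-strand neighbour upstream, 95.8% attributed to a gene and a median width of 113 bp, against 57.0%, 95.9% and 113 bp over the listed members below, an alternative chosen after seeing the data. Because evenness chose the members, every level and time course below is a description, and only position, strand, width and gene attribution are measures that the selection did not use.

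The series measured staged whole embryos of the reference genome strain, In(3R)A, with no mutation or treatment. RAMPAGE, the assay used, enriches cDNAs of complete, capped 5′ ends, and the end of each read gives a start site. Embryos were collected in 22 windows of 1 hr, 0-1 hr to 21-22 hr after egg laying, barcoded at reverse transcription and pooled into a single sequencing library. Each time point is 1 barcoded sample without a replicate, so no replicate error can be set beside any value. Whole embryos mix all cell types, and fewer cells of a type cannot be told apart from less RNA per cell. The 7-8 hr sample was left out of the values, and TSCs held 1193107 to 12409410 reads in the other 21. A single read corresponded to 0.0806 to 0.838 RPM. A TSC listed at 0 in the shallowest sample has an upper limit of 2.51 RPM (3 reads, counting error only).

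Housekeeping genes supply functions that nearly every cell needs, such as protein synthesis, energy metabolism and the upkeep of chromosomes. In flies their promoters tend to spread initiation over many neighbouring start sites, and carry other core elements than the TATA box and Initiator of many regulated genes. Maternal transcripts loaded into the egg supply these functions until the embryo's own genome takes over, so a promoter that is even by RPM can be read from maternal RNA at first and from zygotic RNA afterwards. The deposited tables name genes by FlyBase identifiers and do not pair them with gene names. The word housekeeping thus stands for the expression rule here, and could not be checked against gene functions.

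The members were expressed well above most promoters. Their mean RPM over the time points had a median of 66.0, against 10.6 for developmentally regulated TSCs and 16.7 for all TSCs reaching 10 RPM. Individual members spanned 5.27 to 6429 RPM in their mean. The middle 50% lay between 28.8 and 179 RPM. Members made up 0.841% of the TSCs with a mean under 10 RPM and 22.0% of those at 160 RPM or more. The rule itself bears on this share: 56.9% of developmentally regulated TSCs and 33.4% of all TSCs reaching 10 RPM had at least 1 time point without a read, which no member can have.

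Most members sat towards the permitted limit of variation. The ratio of highest to lowest value had a median of 3.89, with quartiles of 3.23 and 4.44. Only 6 members varied less than 2-fold and 177 less than 3-fold, whereas 214 lay between 4.5-fold and 5-fold. Just across the limit, 231 TSCs had ratios of 5 to 5.5. The evenness of the class thus ran into that of its neighbours with no gap at the threshold. The member closest to the limit, FBgn0089226_01, ranged 4.99998-fold between 89.7 RPM at 2-3 hr and 449 RPM at 4-5 hr. The TSC closest outside it, FBgn0098426_01, ranged 5.01-fold, with 75.1 RPM at 14-15 hr and 376 RPM at 19-20 hr. At the level threshold, FBgn0096728_01 was the weakest member by its highest value, 10.5 RPM at 0-1 hr, and FBgn0092982_01 just missed it with 9.80 RPM. Another 16 TSCs varied less than 5-fold but stayed under 10 RPM. Without the collections of 0-3 hr, 1683 TSCs met the thresholds, 937 of the members among them. Fewer time points ease the limit on variation, and no other block of collections was left out for comparison. Leaving out single collections gave at most 1153 TSCs, without 17-18 hr. After trimmed mean of M-values (TMM) scaling, which sets samples on the bulk of TSCs in place of the read total, 1516 TSCs met the thresholds, 789 members among them.

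**Figure D1:**
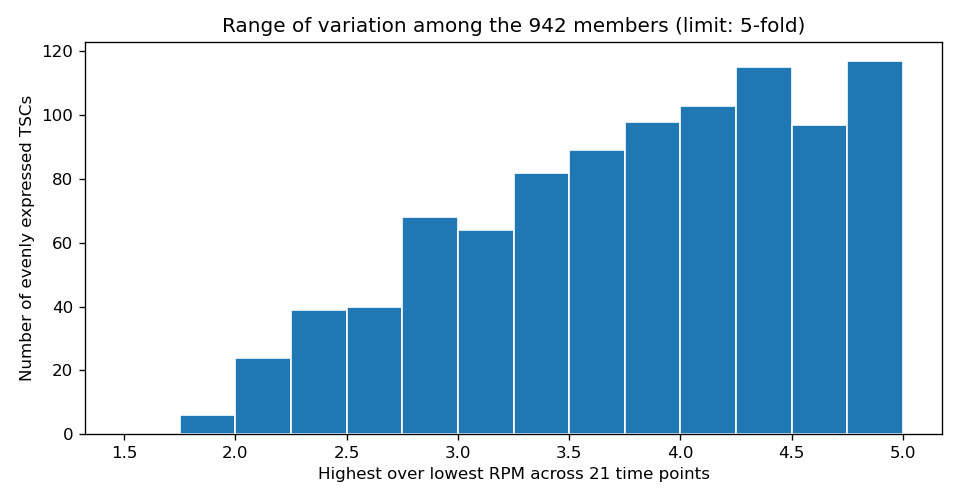
Number of evenly expressed TSCs (vertical axis) by the ratio of highest to lowest RPM over 21 time points (horizontal axis, bins of 0.25). The counts climb towards the 5-fold limit that chose the members, with 6 members under 2-fold and 214 at 4.5-fold or more.

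Counting error limited the weaker members. At the time point where a member was lowest, it had a median of 55 reads, and 66 members had fewer than 10 reads there, with a minimum of 4. The coefficient of variation over time had a median of 35.9% for the members, of which counting alone would give 7.14%. It was 114% for developmentally regulated TSCs and 83.3% for all TSCs reaching 10 RPM, with counting shares of 17.7% and 14.0%. Between neighbouring collections, the median absolute step was 0.29 on the log2 scale for members, 0.48 for developmentally regulated TSCs and 0.43 for all.

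The flattest member was FBgn0091785_01, a TSC of 113 bp on the minus strand at scaffold_12916:4374078-4374190 (FlyBase *D. ananassae* r1.3, the build of all positions here). It had 210 RPM at its lowest (14-15 hr), a median of 307 RPM and 369 RPM at its highest (8-9 hr), a ratio of 1.76. Its mean was 304 RPM at 16-22 hr and 304 RPM at 0-3 hr. The next, FBgn0087405_01 at scaffold_13337:11159006-11159155, was lowest at 682 RPM (20-21 hr), had a median of 915 RPM and was highest at 1286 RPM (12-13 hr). Evenness was found at every level of expression. FBgn0094451_01 (scaffold_13340:1267740-1267907) had 996 RPM at its lowest, a median of 1436 RPM and 1948 RPM at its highest. FBgn0094104_01 (scaffold_13340:6997771-6997828) had 8.30, 11.6 and 16.3 RPM as its lowest, median and highest values, a ratio of 1.96. The lowest of these values rests on 14 reads.

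The strongest member, FBgn0090138_01 at scaffold_13266:8621404-8621604, had a mean of 6429 RPM. It was lowest at 17-18 hr with 3589 RPM, had a median of 6214 RPM and was highest at 12-13 hr with 11509 RPM, a 3.21-fold range. Its steps between neighbouring collections were large, with 3897 RPM directly after its highest value. The second, FBgn0092508_05 at scaffold_12916:9194756-9194962, had a mean of 4505 RPM and a level that declined over the series. Its mean was 2318 RPM at 16-22 hr, against 7080 RPM at 0-3 hr. FBgn0101330_01 held 1289 RPM at its lowest and 5527 RPM at its highest, with a median of 3831 RPM. Its low values, at 15-16 hr, 19-20 hr and 8-9 hr, were single collections next to others of over 3000 RPM. Time points without replicates do not show whether such steps belong to the embryos or to the samples.

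**Figure D2:**
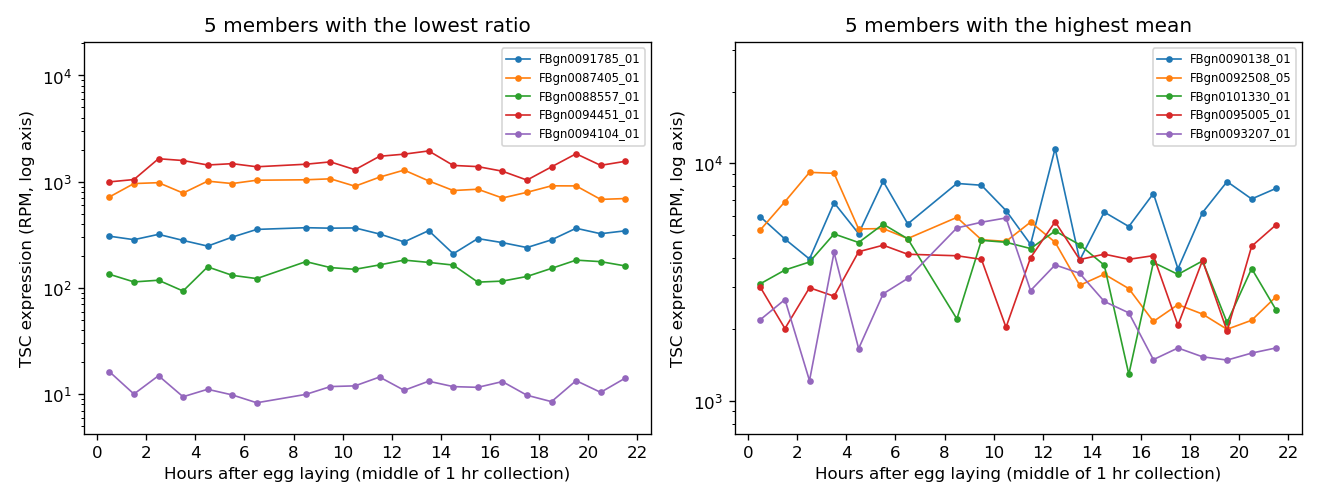
TSC expression (RPM, log axis) by hours after egg laying, 1 point per collection, for the 5 members with the lowest ratio of highest to lowest value (left) and the 5 with the highest mean (right). The flattest member stays between 210 and 369 RPM, whereas the strongest member jumps between 3589 and 11509 RPM.

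As a group the members kept a nearly constant share of the reads until 14 hr and a smaller one afterwards. The course of their levels depended on the scaling. They took 17.3% to 19.1% of the reads in TSCs at each of the 13 time points of 0-14 hr. The share was 11.3% at 17-18 hr, its lowest, and 15.8% at 21-22 hr. The median member had 74.96 RPM at 0-1 hr, 75.1 RPM at 8-9 hr, 70.8 RPM at 13-14 hr, 41.5 RPM at 17-18 hr and 55.4 RPM at 21-22 hr. In the same samples, the 10 highest TSCs of any class took 7.57% to 12.4% of the reads over 0-14 hr, 31.9% at 17-18 hr and 23.7% at 21-22 hr. RPM values are parts of a total, so a lower RPM of the members and a larger share of the highest TSCs cannot be told apart from these values. The hour of the dip was shared by many members: 251 were lowest at 17-18 hr, and 802 were highest at 0-14 hr. After TMM scaling, 12 members were lowest at 17-18 hr and 503 highest at 0-14 hr. The summed TMM-scaled level of the members was lowest at 5-6 hr, where they held 17.6% of the reads. Scaling a sample does not change the share of its reads that fall in members.

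**Figure D3:**
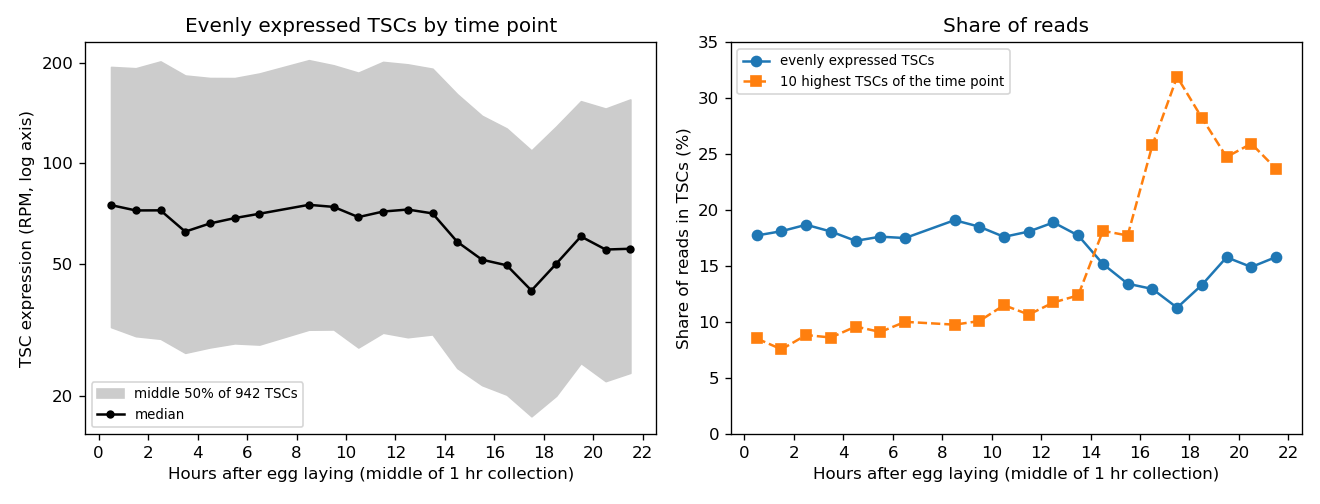
Left, RPM (log axis) of the 942 evenly expressed TSCs by hours after egg laying, with the median as points and the middle 50% of TSCs as a band. Right, share of reads in evenly expressed TSCs and in the 10 highest TSCs of each time point. The members' share is 17.3% to 19.1% up to 14 hr and 11.3% at 17-18 hr, where the 10 highest TSCs take 31.9%. After TMM scaling the summed level of the members is lowest at 5-6 hr instead.

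The direction of the members' drift depended on the scaling. On the log2(RPM + 1) scale, the level at 16-22 hr minus that at 0-3 hr had a median of -0.51 with RPM and of 0.21 with TMM. With RPM 706 members were lower late than early and 236 higher, and with TMM 379 were lower and 563 higher. TMM moved the median of all TSCs reaching 10 RPM by 0.57, to -0.02 under TMM, against -0.59 with RPM. Relative to the median of all TSCs, the members' median was higher by 0.08 with RPM and by 0.23 with TMM. Relative to it, 505 members lay above and 437 below with RPM, and 573 above and 369 below with TMM. The members' own median moved by 0.72 with TMM. Without the pseudocount of 1 RPM, scaling would move every TSC with reads by the same amount. Nothing is thus read from the change in the members' place between the scalings.

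**Figure D4:**
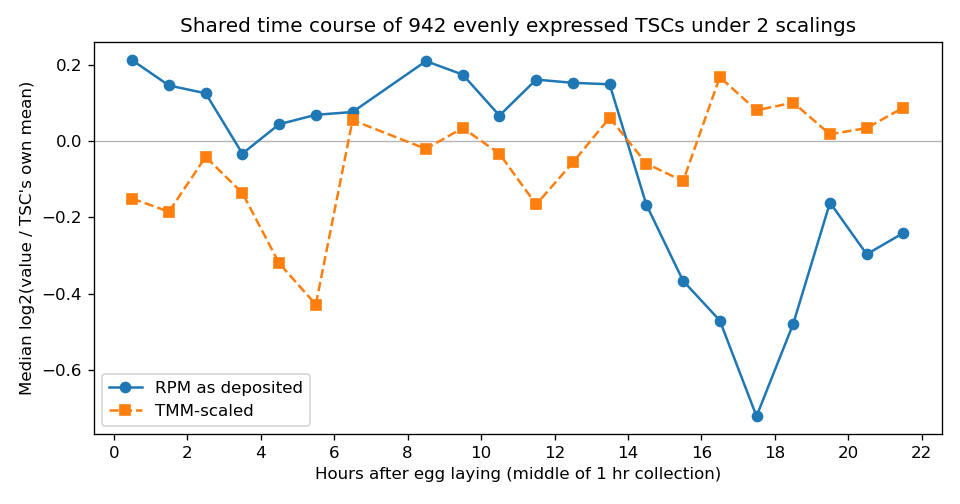
Median over the 942 evenly expressed TSCs of log2(value over the TSC's own mean), by hours after egg laying, for RPM as deposited and after TMM scaling. With RPM the median is -0.72 at 17-18 hr, while with TMM it is 0.08 there and lowest, -0.43, at 5-6 hr, so the direction late against early flips with the scaling.

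Trend fits over all 11300 TSCs gave the same dependence. A spline of time (limma, adjusted p under 0.05) was called for 667 members (70.8%), and for 93.3% of all TSCs tested. edgeR's quasi-likelihood test of the spline on recovered reads called 614 members (65.2%) and 90.4% of all. These calls treat the 21 collections as independent points and used the values that chose the members, so nothing is read from the members' counts. In a linear fit by limma, the balance of directions flipped with TMM. With RPM, 62 members (6.58%) rose with time and 362 (38.4%) fell, against 26.7% and 45.1% of all TSCs. With TMM, 258 (27.4%) rose and 71 (7.54%) fell, against 32.5% and 33.2% of all. edgeR, which also scales by TMM, called 203 members (21.5%) rising and 136 (14.4%) falling, against 30.5% and 39.1% of all TSCs.

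Of the members with the largest drift, the 5 that declined most had ratios of highest to lowest value of 4.78 to 4.98, and the 5 that increased most had ratios of 3.44 to 4.97. FBgn0097002_03 (scaffold_12911:3221106-3221336) had a mean of 307 RPM at 16-22 hr, against 116 RPM at 0-3 hr, a log2 difference of 1.39 with RPM and 2.14 with TMM. FBgn0098185_01 (scaffold_13117:713130-713232) averaged 67.7 RPM at 16-22 hr and 25.7 RPM at 0-3 hr, a difference of 1.37. In the other direction, FBgn0095610_01 (scaffold_13340:17473575-17473711) averaged 146 RPM at 16-22 hr and 562 RPM at 0-3 hr, a difference of -1.97 with RPM and -1.22 with TMM. FBgn0097945_01 (scaffold_13117:2782645-2782751) averaged 58.1 RPM at 16-22 hr and 220 RPM at 0-3 hr, a difference of -1.90. These 4 kept their direction under both scalings. The mean time course of the members accounted for 19.8% of their variance around their own means on the log2 scale, and for 10.3% with TMM. The first principal component, which need not be this shared course, took 36.5% with RPM.

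Most members had another TSC close by on the opposite strand. Neighbouring genes in the compact fly genome often lie head to head, with their promoters back to back. Of the members, 57.0% (537; 95% Wilson interval 53.8% to 60.1%) had an opposite-strand TSC within 1000 bp upstream. Among developmentally regulated TSCs it was 27.3% (26.2% to 28.5%), among TSCs in neither class 47.0%, and among all TSCs reaching 10 RPM 37.1% (36.2% to 38.0%). These intervals treat TSCs as independent, although head-to-head partners count each other. Counting only partners that themselves reached 10 RPM, the shares were 45.2%, 17.0% and 26.2% for members, developmentally regulated TSCs and all. Within 500 bp they were 47.3%, 20.4% and 29.4%, and within 200 bp 25.8%, 10.8% and 16.0%. For TSCs in neither class these shares were 35.4%, 38.6% and 21.4%. The median distance to the partner was 217 bp for members, 268 bp for developmentally regulated TSCs and 230 bp for all. At 216.5 bp, TSCs in neither class did not differ from the members in this distance.

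The members' share was higher than that of developmentally regulated TSCs within ranges of expression level too. TSCs in neither class were not counted apart by level, and all TSCs include the members. Members with a mean of 10 to 20 RPM had a partner in 62.1% of cases, against 28.2% of developmentally regulated TSCs and 38.3% of all TSCs in that range. At 40 to 80 RPM the shares were 55.0%, 29.8% and 41.4%, and at 160 RPM or more 57.1%, 35.02% and 46.6%. In all 6 ranges of level the interval of the members lay above that of developmentally regulated TSCs. At 80 to 160 RPM the members' share of 52.1% (44.5% to 59.6%) overlapped the 46.8% (43.6% to 50.1%) of all TSCs.

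**Figure D5:**
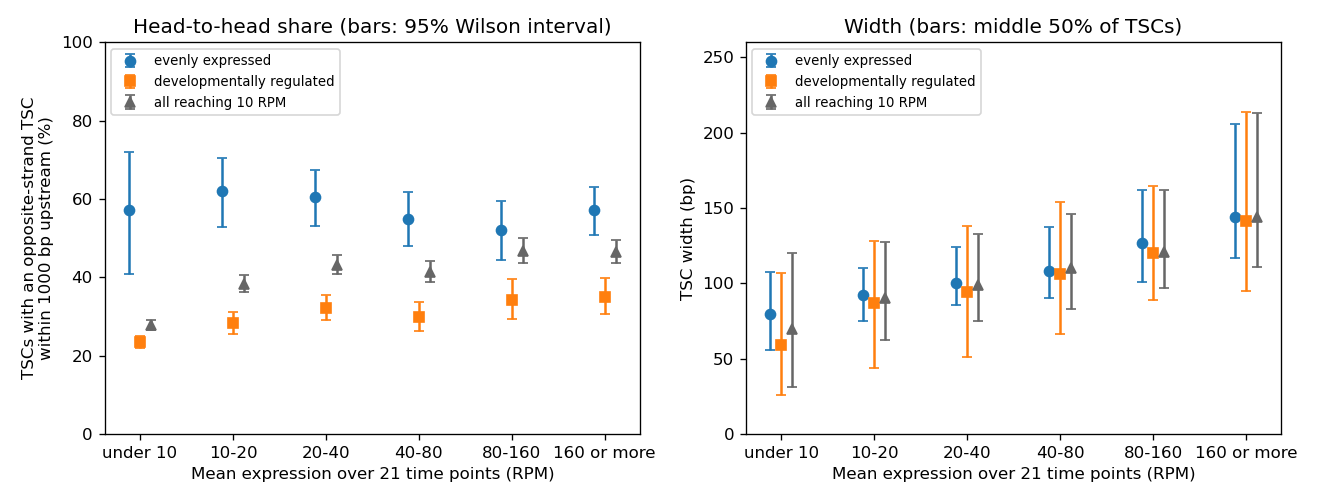
Share of TSCs with an opposite-strand TSC within 1000 bp upstream (left, bars are 95% Wilson intervals) and TSC width in bp (right, points are medians and bars the middle 50% of TSCs), by mean RPM over 21 time points. Evenly expressed TSCs lie above developmentally regulated ones at every level in the left panel (57.1% against 35.02% at 160 RPM or more), while the widths of the classes overlap throughout.

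The partners were mostly attributed to a gene and seldom even themselves, as were the partners of all TSCs reaching 10 RPM. Of the 537 partners, 463 (86.2%) were attributed to a gene, against 68.8% of the partners of developmentally regulated TSCs and 77.5% of those of all TSCs reaching 10 RPM. For partners of TSCs in neither class it was 82.5%. By expression, 63 partners (11.7%) were members too, 119 (22.2%) developmentally regulated, 199 in neither class and 156 under 10 RPM. An even promoter thus faced a developmentally regulated one more often than another even one, as did all TSCs reaching 10 RPM, with 22.3% and 9.35%.

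In 27 pairs both promoters were members and each was the other's closest partner, 8 to 854 bp apart with a median of 191 bp. The closest were FBgn0087164_01 and FBgn0101373_01, 8 bp apart at scaffold_13337:7526991-7527134 and scaffold_13337:7526772-7526983. FBgn0087164_01 had 165 to 645 RPM and FBgn0101373_01 had 334 to 1348 RPM. As close were FBgn0095805_01 and FBgn0093259_01, also 8 bp apart, with means of 16.2 and 40.5 RPM. Next came FBgn0098808_01 and FBgn0098762_01, 11 bp apart, whose means were 257 and 11.3 RPM. In FBgn0095610_01 and FBgn0093443_01, 18 bp apart, the means were 316 and 137 RPM. In the fifth pair, FBgn0096489_02 and the unattributed RAMPAGEpeak_019401 lay 25 bp apart with means of 276 and 39.1 RPM.

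The 2 promoters of a pair mostly differed in level. The stronger promoter of a pair exceeded the weaker one by a median of 3.67-fold, in 4 pairs by less than 2-fold and in 4 by more than 10-fold. The most unequal pair, at 104-fold, joined the second flattest member, FBgn0087405_01 with a mean of 916 RPM, to FBgn0101102_01 with 8.78 RPM, 358 bp away. Pearson's r between the log2 time courses of the 27 pairs ranged over -0.35 to 0.74 with a median of 0.21, each over the same 21 samples, which share their sequencing depth and RPM totals. The upper quartile was 0.44. Over 1194 such pairs of TSCs reaching 10 RPM the median was 0.43, but members were chosen for flat time courses, so nothing is read from their lower values.

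Width followed the level of expression. Members had a median width of 113 bp (quartiles 92 and 153), against 82 bp for developmentally regulated TSCs and 97 bp for all TSCs reaching 10 RPM. TSCs in neither class had 107 bp. The median width was larger at higher mean RPM among members, developmentally regulated TSCs and all. From 10 RPM upwards these differed less within a range of mean RPM. At 10 to 20 RPM it was 92 bp for members, 87 bp for developmentally regulated TSCs and 90 bp for all, and at 160 RPM or more 144 bp, 141.5 bp and 144 bp. Under 10 RPM it was 80 bp, 59 bp and 70 bp, with 35 members in that range. The flattest 177 members, under 3-fold, had a median of 136 bp. The widest members, FBgn0091890_01 (649 bp, mean 268 RPM) and FBgn0087413_01 (642 bp, mean 840 RPM), were strong promoters. The narrowest, FBgn0095367_01 (3 bp, mean 8.15 RPM) and FBgn0095255_02 (4 bp, mean 8.02 RPM), were among the weakest and were further TSCs of genes with a stronger member. Of the members, 468 lay on the plus and 474 on the minus strand of 38 scaffolds in all, and on the large scaffolds they made up 5.80% to 12.4% of the TSCs reaching 10 RPM.

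Most members belonged to an annotated gene. Attribution to a gene was made for 95.9% of members (903; 94.4% to 97.0%), against 83.2% of developmentally regulated TSCs (82.2% to 84.1%) and 87.8% of all TSCs reaching 10 RPM (87.1% to 88.3%). At 10 to 20 RPM the shares were 94.0%, 85.2% and 88.7%, and at 160 RPM or more 97.6%, 94.0% and 95.2%. The share of members came closest to that of all TSCs at 20 to 40 RPM, with 92.4%, 87.5% and 91.5%. Among TSCs in neither class 92.6% were attributed, over all levels. The 903 belonged to 877 genes. For 379 of these genes the member was the only TSC. Such sole TSCs were 42.0% of the attributed members, 45.2% of developmentally regulated TSCs and 44.0% of all attributed TSCs reaching 10 RPM. Of the 498 with several TSCs, 468 had a member as their strongest, and members held a median of 97.2% of the reads of those genes. Summed over all their TSCs, 836 of the 877 genes (95.3%) were still even by the same thresholds. Sole TSCs included, 847 members (93.8% of those attributed) were their gene's strongest TSC, against 76.6% of developmentally regulated TSCs and 80.7% of all. These counts use the reads that chose the members, and a rule that admits no time point without reads favours strong TSCs, so nothing is read from the difference.

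The other TSCs of these genes are by definition not even by the rule, and part of them were developmentally regulated. The genes with a member had 301 other TSCs that reached 10 RPM, of which 129 (42.9%) were developmentally regulated, in 96 genes. The share was 54.5% over all TSCs reaching 10 RPM, and 62.6% over those that were not the strongest of their gene. Both of these sets include members, which the 301 leave out, so nothing is read from the difference. Of the 301, 63 were highest at 0-3 hr, 187 at 3-16 hr and 51 at 16-22 hr. In 22 genes 2 TSCs were even and in 2 genes 3 were. Whether the weaker TSCs of a gene are promoters of their own or hold reads of transcripts that start at the strongest one cannot be told apart from these tables. At FBgn0089688 (scaffold_13266), the strongest TSC FBgn0089688_02 had a mean of 1289 RPM and a 2.82-fold range. Its other even TSCs, FBgn0089688_03 and FBgn0089688_06, had means of 18.9 and 28.3 RPM. At FBgn0097769 (scaffold_13088), the means of the 3 members were 394, 43.6 and 23.9 RPM. In both genes the weaker members lay downstream of the strongest one on the same strand.

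Only 39 members belonged to no annotated gene. Their mean RPM had a median of 39.6, against 67.2 for attributed members, and their median width was 131 bp, against 113 bp. Of the 39, 15 had an opposite-strand TSC within 1000 bp upstream, in 11 cases that of a gene, and 4 had an attributed TSC within 1000 bp on their own strand. The strongest was RAMPAGEpeak_019852, 182 bp at scaffold_13339:597946-598127, with 856 RPM at its lowest (17-18 hr), a median of 1179 RPM and 1900 RPM at its highest (4-5 hr). Its 2.22-fold range would place it among the flatter members, and the closest attributed TSC of its strand was 396787 bp away. Its scaffold held 86 TSCs, and its opposite-strand partner at 161 bp was unattributed too. RAMPAGEpeak_017209 (scaffold_13337:14485367-14485503) had a mean of 735 RPM and lay 1922 bp from an attributed TSC. RAMPAGEpeak_022404 (scaffold_13266:6510272-6510414) ranged 2.56-fold around a mean of 349 RPM and faced FBgn0089020_03 at 231 bp. Whether these are genes absent from the annotation, distant promoters of annotated ones or neither cannot be told apart from the deposited tables.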

How the data were processed

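RAMPAGE libraries of staged *D. ananassae* embryos (22 collections, 1 sample each) were analysed from the deposited TSC table and peak list. The authors mapped reads with STAR (version not given in the sources used here) to FlyBase release r1.3, called TSCs on all time points pooled, filtered out rDNA repeats, attributed TSCs to genes and deposited values in RPM, scaled per time point. Division by the RPM worth of 1 read gave whole reads for 100% of values within 0.1 read. All per-sample columns matched a labelled time point, and the 7-8 hr columns were used only where named. The gene table served only for checks, and the peak list's score and the smoothed gene series were not used.

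TSCs were classed with the study's thresholds over 21 time points, 7-8 hr left out. The members, lists and tests were chosen with earlier results of these data known. Trends were fitted to all TSCs reaching 10 RPM with limma, using log2(RPM + 1) and either a natural spline (4 degrees of freedom) or a line, with Benjamini-Hochberg adjustment at 0.05. On these reads, edgeR's quasi-likelihood test called 10216 of 11300 TSCs by the spline. TMM factors for the scaled values used all TSCs, while the edgeR fits took theirs from the 11300 TSCs reaching 10 RPM. The log2 changes understate those of low TSCs because of the pseudocount of 1 RPM. Late minus early levels compare 16-22 hr with 0-3 hr. Shares carry 95% Wilson intervals, which cover counting error only. An upstream partner lay on the other strand at the start side, 1000 bp or less from edge to edge. Both fits were tested on simulated data with independent noise, in which 200 of 11300 TSCs changed and the rest stayed flat. Of 2-fold changes, limma found 9% by the spline and 15% by the line, and edgeR 13% and 19%. Of 4-fold changes, limma found 95% and 89%, and edgeR 98% and 98%. Among the unchanged TSCs, limma called 0.045% and 0.09%, and edgeR 0.036% and 0.054%. In the embryos most TSCs were called, so the shares found in the simulation cannot be carried over to them.

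The TSCs to be named were by rule the 10 flattest and 10 strongest members, 5 strongest unattributed members, 5 with the largest drift each way, the 3 widest and narrowest, the 5 closest member pairs, those next to each threshold and the genes with several members. Fewer are printed, because identifiers are not paired with names: 0 identifiers were found in the RefSeq gene table. The fits ran in edgeR 4.0.16 and limma 3.58.1 under R 4.3.3. Figures were drawn with matplotlib 3.10.9, and other values were computed with scipy 1.17.1, pandas 2.3.3 and numpy 2.4.6 under Python 3.11.15.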

Additional observations from a re-analysis of the deposited data

Results flagged for a closer look

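The excluded 7-8 hr sample still held reads in the evenly expressed TSCs. It had 579 reads in TSCs, of which 85 (14.7%, 95% Wilson interval 12.0% to 17.8%) fell in members, and 64 of the 942 members had at least 1 read. The sample is outside every comparison here. The limit of 3 reads holds for a single TSC at 0, so it is not set against the 85 reads summed over members. Where these reads came from was not tested. At this depth the level of a single member could not be given.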

How the results depend on the processing

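No paired analysis was possible because the time points are single samples. The number of evenly expressed TSCs, 942, was 177 at a limit of 3-fold, 2832 at 10-fold, 1516 with TMM normalization (789 of the 942 among them) and 1683 without 0-3 hr (937 of them). A wider limit admits more TSCs by construction. Fewer time points ease the limit on variation, although a TSC that loses its highest value can drop under 10 RPM. The cause of the TMM difference was not tested. Without single time points it ranged over 951 to 1153. Attribution moved to 97.7% and median width to 136 bp for members under 3-fold. The head-to-head share of 57.0% was 47.3% within 500 bp, 25.8% within 200 bp and 45.2% with partners reaching 10 RPM. The late minus early median reversed with TMM to 0.21. The median slope of members, -0.027 log2 per hr, reversed to 0.013 with TMM and 0.0036 with edgeR. Rising members were 258 (27.4%) with TMM and 203 (21.5%) with edgeR, against 32.5% and 30.5% of all TSCs. Falling ones were 71 (7.54%) and 136 (14.4%), against 33.2% and 39.1% of all. With no filter on low TSCs, 18422 of 27105 TSCs were called by the spline and 13111 by the line, since more were tested. Leaving out single time points gave 10358 to 10581 TSCs and 614 to 676 members for the spline. For the line it gave 7908 to 8106 TSCs, 47 to 67 members rising, 324 to 364 falling, and a median slope of -0.029 to -0.023. Counting each interval once, an alternative chosen after seeing the data, gave 927 members. It and the other alternatives, 35 results in all, stayed within 1.5-fold of the main count or within the interval of the main value. Core promoter motifs and the gene lists were not run, as no genome of this build or gene names were used here. Depth limits members with fewer than 10 reads at their lowest time point.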
